A study of Rattus norvegicus with 2 samples.

Results

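The genes of 5 nuclear steroid hormone receptors were followed in a single-cell RNA sequencing experiment on the hypothalamus of young female rats. They were *Esr1* and *Esr2* (estrogen receptors alpha and beta), *Pgr* (progesterone receptor), *Nr3c1* (glucocorticoid receptor) and *Nr3c2* (mineralocorticoid receptor). The list was set by name, and the symbols were looked up among the 32883 genes that both libraries list. The symbols of 4 of the 5 genes were matched (*Esr1*, ENSRNOG00000019358; *Esr2*, ENSRNOG00000005343; *Pgr*, ENSRNOG00000006831; *Nr3c2*, ENSRNOG00000034007), and *Nr3c1* was not analysed here.

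Hypothalamic tissue that included the anteroventral periventricular nucleus and the arcuate nucleus came from female Sprague Dawley rats at postnatal day (PND) 29, given as 4 weeks of age in the labels. SC300 rats had been implanted at PND 0.5 with a silicone capsule that held 300 µg of EB (estradiol benzoate, an ester that releases estradiol). The paper reports, from a separate experiment, that serum estradiol of SC300 rats still lay above Control at about the age sampled here. Estradiol in the hypothalamus had by its account fallen to the Control level well before. Control rats are called intact in the labels, while the methods describe a capsule with oil. Each library was made from the pooled tissue of 3 rats of its group, so the spread between rats is unknown and no test between the groups was possible.

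Steroid receptors of this family are proteins that bind their hormone inside the cell and then act on DNA as transcription factors, held ready by heat shock protein chaperones and assisted by coregulators. In the hypothalamus, estrogen receptor alpha carries the feedback of ovarian estradiol onto the neurons that drive gonadotropin release. *Pgr* is a classic target gene of that receptor, and the glucocorticoid and mineralocorticoid receptors carry the adrenal steroid signal in neurons and glia.

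The counts are unique molecular identifiers (UMIs), tags that mark each captured RNA molecule once. Barcodes with at least 200 detected genes were kept, 4296 in Control (51382276 UMIs, median 7986 per cell) and 4379 in SC300 (56390355 UMIs, median 8182), and 7 barcode sequences occurred in both libraries. Clustering gave 23 clusters, of which 21 were named from marker lists into 13 cell types that carry the ending "-like" and 2 stayed unnamed. The neuron-like cells (464 Control and 449 SC300) held all 8 markers of their list above the other cells, for example *Snap25*, a synaptic protein gene, at 1020 and 943 CPM against 20.2 and 19.2 CPM elsewhere. CPM is the number of UMIs of a gene per 1000000 UMIs of the same cells. When each barcode was gated by its own markers, 94.7% of the neuron-like cells kept their name. Of 510 tanycyte-like cells, 133 (26.1%) did. The share was 62.1% for mural cell-like, 74.4% for macrophage-like and at least 87.8% for the other named cell types. The tanycyte-like cluster was named by 4 markers, and its name is the least certain. Of the neuron-like cells, 143 Control and 142 SC300 cells formed a cluster with medians of 43.2% and 48.8% mitochondrial UMIs. This cluster was named by 5 of the 8 markers, *Snap25* not among them. Values without its cells are given in the last part.

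The receptors were sparse. Over all kept cells, *Esr1* gave 136 UMIs in Control and 71 in SC300, *Nr3c2* 47 and 47, *Pgr* 12 and 36, and *Esr2* 10 and 21. Barcodes under the limit of 200 genes (192 and 145) held 0 UMIs of any of the 4 genes. A gene was called different when it had at least 50 UMIs in both libraries together and lay over 1.5-fold apart in CPM. Of the receptors, 2 reached 50 UMIs over all kept cells, and 1 of them, *Esr1*, was called lower in SC300, as were 3.75% of the 14201 genes with 50 UMIs, while none was called higher, against 2.77% of those genes. Values in parentheses give the exact 95% interval of a CPM (Poisson), a share of cells (Clopper-Pearson) or a ratio (conditional binomial), which covers counting error only and not the variation between rats.

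To place *Esr1* and *Pgr* beside their regulatory DNA, the 250 bases before the annotated start were taken from the RefSeq promoters of the rat build GRCr8, in which *Esr1*, *Esr2* and *Pgr* were matched. The estrogen response element was searched as GGTCANNNTGACC, its half-site as GGTCA, and the element shared by the glucocorticoid, mineralocorticoid and progesterone receptors as GNACANNNTGTNC, each on both strands. The full estrogen response element contains the half-site. Of 33469 rat promoters of this length, 0.0239% held the full estrogen response element, 35.4% the half-site and 0.373% the third element. Neither *Esr1* (chr1:43641845-43642094, plus strand) nor *Pgr* (chr8:14354148-14354397, plus strand) held any of them, and *Esr2* (chr6:100644710-100644959, minus strand) held 2 half-sites, in capitals. A window without a match says only that these letters do not occur in it.
Esr1: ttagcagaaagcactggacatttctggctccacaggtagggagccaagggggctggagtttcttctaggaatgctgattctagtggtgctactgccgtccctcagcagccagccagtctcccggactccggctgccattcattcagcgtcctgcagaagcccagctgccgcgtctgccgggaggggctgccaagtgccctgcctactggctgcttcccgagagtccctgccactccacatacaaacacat
Pgr: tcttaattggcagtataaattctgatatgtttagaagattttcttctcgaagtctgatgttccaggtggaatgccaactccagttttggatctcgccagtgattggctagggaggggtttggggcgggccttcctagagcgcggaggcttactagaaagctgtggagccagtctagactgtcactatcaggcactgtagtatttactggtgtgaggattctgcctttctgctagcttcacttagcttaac
Esr2: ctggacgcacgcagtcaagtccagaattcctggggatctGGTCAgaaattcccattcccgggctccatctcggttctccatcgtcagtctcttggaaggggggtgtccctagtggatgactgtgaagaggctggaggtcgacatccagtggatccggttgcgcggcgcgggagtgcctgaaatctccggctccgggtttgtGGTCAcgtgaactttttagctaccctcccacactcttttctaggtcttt

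*Esr1* was mainly a neuronal transcript, and it was 2.11-fold lower in the neuron-like cells of the SC300 library. These cells held 112 *Esr1* UMIs in Control, or 9.24 CPM (7.60 to 11.1), and 55 in SC300, or 4.37 CPM (3.29 to 5.68). The log2 ratio of SC300 over Control was -1.08 (-1.57 to -0.60), and 3.2% of the 10812 genes with 50 UMIs in these cells were called lower. Neuron-like cells held 80.7% of the 207 *Esr1* UMIs of both libraries.

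*Esr1* was found in 51 of 464 Control neurons (11%, 8.29 to 14.2) and in 37 of 449 SC300 neurons (8.24%, 5.87 to 11.2), intervals that overlap. Median depths were 24705 and 24207 UMIs per cell. Cells with 1 *Esr1* UMI numbered 25 in both libraries. Cells with 5 or more numbered 6 in Control and 1 in SC300, and the highest cell held 9 and 5 UMIs. Positive cells held a mean of 2.20 UMIs in Control and 1.49 in SC300. The libraries thus lay further apart in the number of *Esr1* UMIs per positive neuron at the upper end than in the number of neurons with 1 UMI. When each neuron was thinned to 2000 UMIs, which left out 10 Control and 6 SC300 cells, 9 of 454 (1.98%) and 8 of 443 (1.81%) were positive, too few molecules to read a difference, and the log2 ratio was -0.13 (-1.71 to 1.41), no longer past 1.5-fold. In cells with up to 10% mitochondrial UMIs, 110 Control and 46 SC300 neurons with 13 and 2 *Esr1* UMIs, it was -1.72 (-4.91 to 0.42).

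Microglia-like cells, which served as a measure of free RNA, held no *Esr1* UMI in 526 Control cells and none in 507 SC300 cells. A count of 0 was read as allowing up to 3 cells, 0.570% and 0.592%, and the Clopper-Pearson intervals reach 0.699% and 0.725%. Their median depths were 6630.5 and 7322 UMIs. Mature oligodendrocyte-like cells, at 19921 and 20854 UMIs and thus nearer to the depth of the neurons, held *Esr1* in 0 of 369 and 2 of 461 cells. The shares of *Esr1*-positive neurons were above both.

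Outside the neurons few *Esr1* UMIs were counted, most of them in astrocyte-like and ependymal cell-like cells. In Control, ependymal cell-like cells stood next after neurons at 2.04 CPM (0.662 to 4.76), followed by astrocyte-like cells at 1.58 CPM (0.883 to 2.60), endothelial cell-like cells at 0.839 CPM (0.102 to 3.03) and tanycyte-like cells at 0.569 CPM (0.0690 to 2.06). The intervals of these 4 overlap, so their order is not settled. All 4 reach below the upper limit of Control microglia-like cells (1.04 CPM), so by CPM a level above free RNA is not settled either. By share of positive cells, ependymal cell-like (7.58%, 2.51 to 16.8) and astrocyte-like cells (1.37%, 0.770 to 2.25) lay above Control microglia-like cells (up to 0.699%). In SC300 both intervals (from 0.469% and 0.269%) reach below the microglia-like limit of 0.725%. Control ependymal cell-like cells were also deeper, at a median of 29416 UMIs. Tanycyte-like cells were positive in 0.629% of Control and 1.56% of SC300 cells, not above the limit of 3 cells (0.943% and 1.56%). In SC300 the same cell types stood at 1.29, 0.758, 0 and 1.42 CPM. Astrocyte-like cells held 15 UMIs in Control and 8 in SC300, each in a different cell, with a log2 ratio of -1.06 (-2.50 to 0.27). All cells but the neuron-like held 24 and 16 UMIs, with a log2 ratio of -0.74 (-1.75 to 0.23), so a difference outside neurons was not detectable at this depth. Oligodendrocyte precursor-like, newly formed oligodendrocyte-like, microglia-like, macrophage-like, mural cell-like, stromal and erythroid cell-like cells held 0 *Esr1* UMIs in both libraries.

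**Figure D1:**
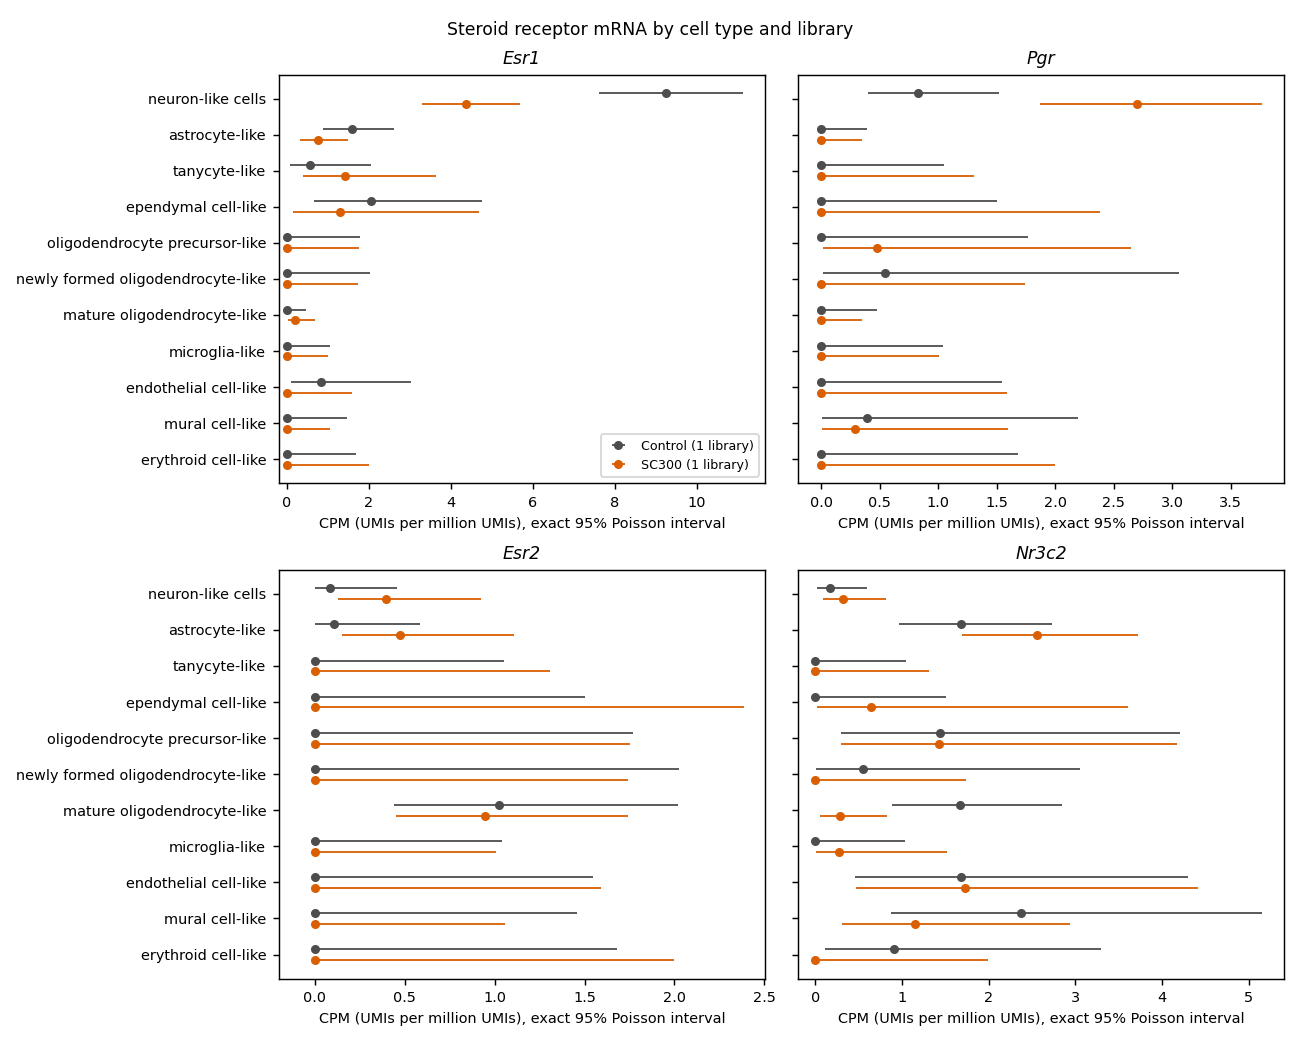
CPM of *Esr1*, *Pgr*, *Esr2* and *Nr3c2* (x axis) in the cell types (y axis) of the Control library (grey) and the SC300 library (orange), with exact 95% Poisson intervals as bars; macrophage-like and stromal cells, with few UMIs in all, are left out. *Esr1* and *Pgr* stood highest in neuron-like cells, where Control lay above SC300 for *Esr1* (9.24 and 4.37 CPM) and below it for *Pgr* (0.825 and 2.70 CPM).

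The lower *Esr1* level was seen on both sides of the transmitter divide, with a wider interval in the smaller group. Neurons with at least 2 UMIs of *Slc32a1*, *Gad1* and *Gad2* (transport and synthesis of GABA) and none of *Slc17a6* (a vesicular glutamate transporter) were taken as GABAergic, 266 in Control and 251 in SC300. They held 73 and 32 *Esr1* UMIs (10.3 and 4.82 CPM), and the log2 ratio was -1.09 (-1.74 to -0.47). Neurons with *Slc17a6* and under 2 UMIs of the GABA genes, 119 and 125 cells, held 29 and 20 UMIs (8.32 and 4.71 CPM), a log2 ratio of -0.82 (-1.72 to 0.05). The interval of the glutamatergic ratio includes 0 and also the GABAergic ratio, and the difference between both ratios was not tested.

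Neurons were also gated by at least 10 UMIs of a neuropeptide gene, so that a cell can be in several sets, and the sets need not hold the same kinds of cells in both libraries. *Ghrh* neurons, which make growth hormone-releasing hormone, had the highest *Esr1* level among the peptide sets of Control with at least 20 *Esr1* UMIs. It was 81.6 CPM in Control (23 UMIs in 11 cells) and 28.2 CPM in SC300 (16 UMIs in 17 cells), with a log2 ratio of -1.54 (-2.55 to -0.55). *Kiss1* neurons, which make kisspeptin, a trigger of gonadotropin-releasing hormone neurons, held 10 *Esr1* UMIs in 7 Control cells (50.8 CPM) and 4 in 10 SC300 cells (10.9 CPM), with a log2 ratio of -2.22 (-4.35 to -0.43). *Tac3* encodes neurokinin B, which arcuate kisspeptin neurons also make. All 10 *Esr1* UMIs from Control lay in 6 *Kiss1* cells with at least 10 *Tac3* UMIs as well. In SC300, 1 *Kiss1* cell passed that gate, with 1 *Esr1* UMI. Among cells past both gates the log2 ratio was -0.95 (-6.39 to 1.86). The *Kiss1* ratio thus compares sets of different make-up and does not show a lower level within a like kind of kisspeptin neuron. All of these peptide sets are small, and a handful of cells sets each value.

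Most of the *Esr1* UMIs lay outside the kisspeptin sets. The 450 Control and 434 SC300 neurons with under 10 UMIs of both *Kiss1* and *Tac3* held 101 and 51 *Esr1* UMIs. Their log2 ratio was -1.03 (-1.54 to -0.53). The ratio was -1.33 (-2.37 to -0.35) in *Sst* (somatostatin) neurons, with 27 and 14 UMIs, and -1.58 (-3.24 to -0.14) in *Nts* (neurotensin) neurons, with 15 and 6 UMIs. Intervals that include 0 were found in *Tac1* (substance P) neurons, with 23 and 20 UMIs and -0.68 (-1.62 to 0.25), in *Gal* (galanin) neurons, with 29 and 15 UMIs and -0.92 (-1.93 to 0.03), and in *Th* (tyrosine hydroxylase, for dopamine) neurons, with 20 and 2 UMIs and -2.01 (-5.15 to 0.04). *Pomc* neurons (precursor of melanocortins) held 3 and 3 *Esr1* UMIs in 9 and 10 cells. The cell with the most *Esr1* UMIs in Control, 9 of 56155, also held 360 UMIs of *Sst*, 181 of *Tac1* and 36 of *Slc17a6*, and the cell with the most in SC300, 5 of 81829, held 138 of *Tac1* and 30 of *Slc17a6*.

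**Figure D2:**
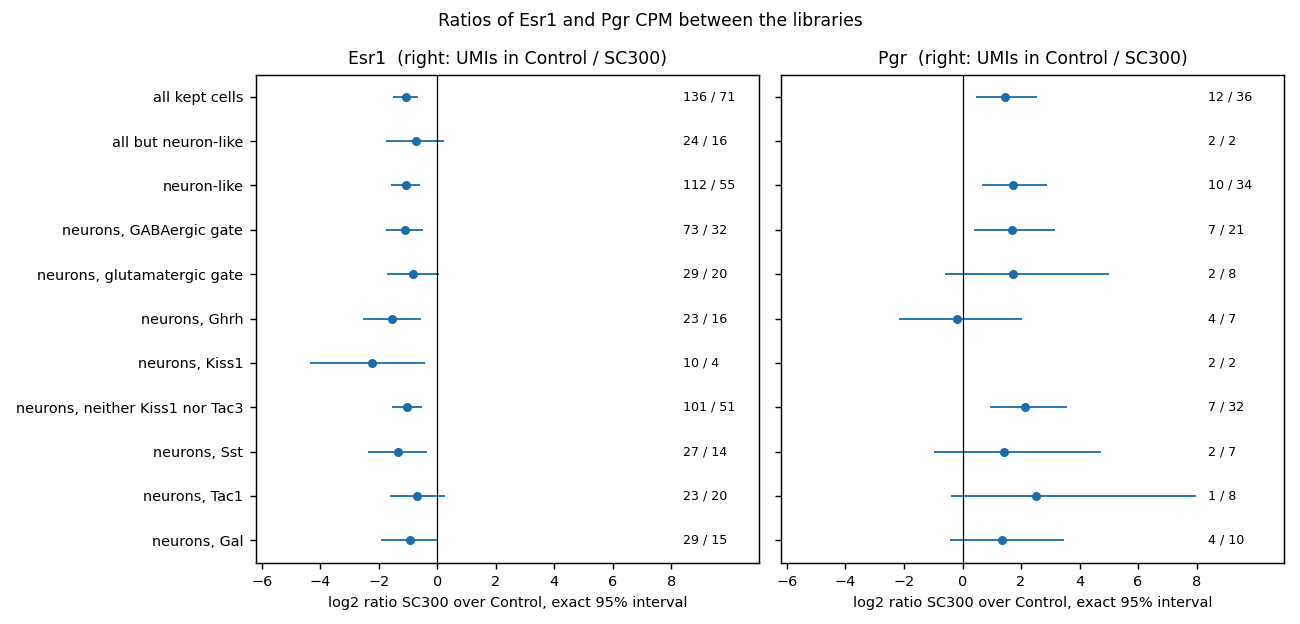
Log2 ratio of SC300 over Control CPM (x axis, points) with exact 95% intervals (bars) for *Esr1* and *Pgr* in sets of cells (y axis); the UMIs in Control and SC300 stand at the right, and sets with 3 UMIs or fewer in each library have no point. All plotted *Esr1* ratios lie below 0, with intervals that reach past 0 in all cells but the neuron-like and in glutamatergic, *Tac1* and *Gal* neurons, and the *Pgr* ratios lie above 0 except in *Ghrh* neurons (-0.20).

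*Pgr* went the other way. Neuron-like cells held 10 *Pgr* UMIs in Control, or 0.825 CPM (0.395 to 1.52), and 34 in SC300, or 2.70 CPM (1.87 to 3.77), which is 3.27-fold higher in SC300, with a log2 ratio of 1.71 (0.66 to 2.89). With 44 UMIs *Pgr* stayed under the 50 needed for a call. At a minimum of 20 UMIs, set after its values were seen, *Pgr* was past 1.5-fold higher, as were 4.69% of 12403 genes. *Pgr* was found in 8 of 464 Control neurons (1.72%, 0.747 to 3.37) and in 29 of 449 SC300 neurons (6.46%, 4.37 to 9.14). Unlike for *Esr1*, the intervals of these shares do not overlap. After thinning, 1 and 3 neurons were positive, too few to compare. Neurons with up to 10% mitochondrial UMIs held 1 and 8 *Pgr* UMIs, with a log2 ratio of 3.98 (1.08 to 9.45). No *Pgr* UMI was found in mature oligodendrocyte-like or microglia-like cells of either library, and all cells but the neuron-like held 2 and 2.

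Nearly all *Pgr*-positive neurons held 1 UMI, 7 of 8 in Control and 25 of 29 in SC300, so the libraries differed in the number of positive cells. GABAergic neurons held 7 and 21 *Pgr* UMIs, with a log2 ratio of 1.68 (0.39 to 3.16), and glutamatergic neurons 2 and 8, with a log2 ratio of 1.72 (-0.61 to 4.99). Neurons with neither *Kiss1* nor *Tac3* at 10 UMIs held 7 and 32, with a log2 ratio of 2.15 (0.95 to 3.58). *Ghrh* neurons differed from this pattern in value, with 4 UMIs in Control (14.2 CPM) and 7 in SC300 (12.3 CPM) and a log2 ratio of -0.20 (-2.18 to 2.02). A single cell held 3 of the 4 Control UMIs. Neurons with at least 10 UMIs of *Kiss1* or *Tac3* held 3 and 2 *Pgr* UMIs (6.37 and 3.33 CPM), too few for a ratio. *Pomc* neurons held 0 *Pgr* UMIs in Control and 6 in SC300.

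*Esr1* and *Pgr* were found together in 6 neurons of each library. They were 75% of the 8 *Pgr*-positive neurons in Control and 20.7% of the 29 in SC300, or 11.8% and 16.2% of the *Esr1*-positive ones. In neurons without an *Esr1* UMI (413 Control and 412 SC300 cells), *Pgr* gave 2 UMIs in Control and 28 in SC300. In neurons with one (51 and 37 cells), it gave 8 and 6 UMIs. The additional *Pgr* UMIs of SC300 thus came from neurons in which no *Esr1* UMI was counted. At this depth the absence of a UMI does not show that a neuron lacks *Esr1*.

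**Figure D3:**
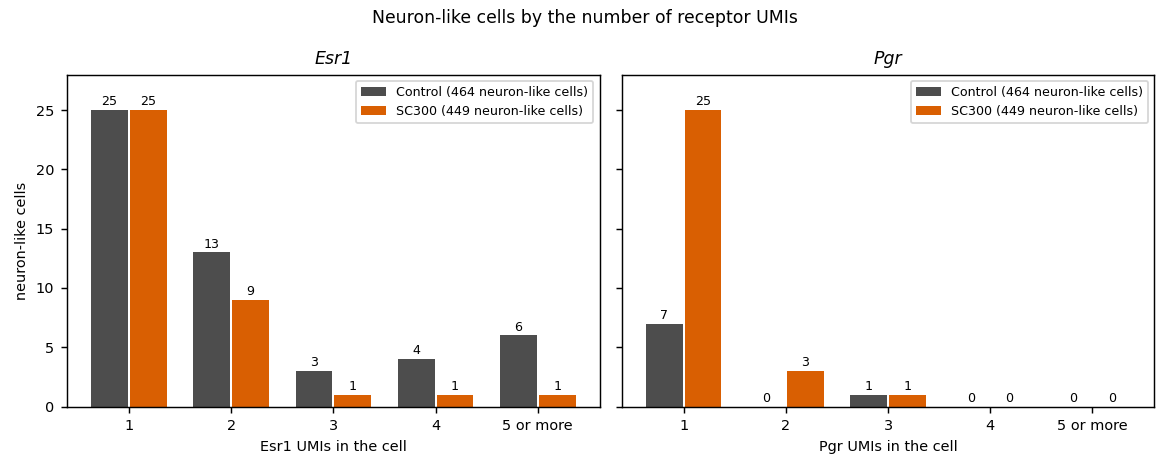
Number of neuron-like cells (y axis) with 1, 2, 3, 4 and 5 or more UMIs (x axis) of *Esr1* and *Pgr* in the Control library (grey, 464 cells) and the SC300 library (orange, 449 cells). Cells with 1 *Esr1* UMI number 25 in both libraries and cells with 5 or more 6 and 1, while cells with 1 *Pgr* UMI number 7 in Control and 25 in SC300.

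*Esr2* was most frequent in mature oligodendrocyte-like cells, the myelinating glia, which held 18 of its 31 UMIs (58.1%). They gave 8 UMIs in Control (1.02 CPM, 0.442 to 2.02) and 10 in SC300 (0.946 CPM, 0.454 to 1.74), each in a different cell. The share of positive cells was 2.17% in both libraries (0.940 to 4.23 and 1.04 to 3.95), with a log2 ratio of -0.11 (-1.61 to 1.43). Of these 18 UMIs, 8 and 9 lay in the larger of 2 mature oligodendrocyte-like clusters. Microglia-like cells held 0 *Esr2* UMIs in 526 and 507 cells, with upper limits of 1.04 and 1.01 CPM. Both CPM intervals of the oligodendrocytes reach below these limits, so by CPM a level above free RNA is not settled. Their shares of positive cells lay above the microglia-like limits of 0.699% and 0.725%. The microglia-like cells were shallower, with medians of 6630.5 and 7322 UMIs against 19921 and 20854. Neuron-like cells held 1 and 5 UMIs and astrocyte-like cells 1 and 5. The neuronal intervals (0.00209 to 0.459 and 0.129 to 0.926 CPM) overlap those of the oligodendrocytes in part. Such an overlap does not decide the order of both cell types, and the difference between them was not tested. Over all kept cells the log2 ratio was 0.94 (-0.21 to 2.19), an interval that includes 0.

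The few *Nr3c2* UMIs were spread over astrocytes, oligodendrocytes and vessel cells. Astrocyte-like cells held 16 UMIs in Control, or 1.68 CPM (0.962 to 2.73), and 27 in SC300, or 2.56 CPM (1.69 to 3.72), together 45.7% of its UMIs, with a log2 ratio of 0.60 (-0.34 to 1.60). Mural cell-like cells (pericytes and smooth muscle) held 6 and 4 UMIs (2.37 and 1.15 CPM), endothelial cell-like cells 4 and 4 (1.68 and 1.73 CPM), oligodendrocyte precursor-like cells 3 and 3 (1.44 and 1.43 CPM), and neuron-like cells 2 and 4 (0.165 and 0.318 CPM). The intervals of the astrocyte, mural and endothelial levels overlap in each library. Tanycyte-like cells held 0 in both libraries, and microglia-like cells held 0 in Control and 1 in SC300, with upper limits of 1.04 and 1.52 CPM. Of the levels named so far for *Nr3c2*, only that of astrocyte-like cells in SC300 has an interval wholly above the limit of its library. For the others, a level above free RNA is not settled by CPM. By share of positive cells, Control astrocyte-like (1.46%, 0.839 to 2.37) and mural cell-like cells (3.64%, 1.35 to 7.75) lay above Control microglia-like cells (up to 0.699%). Astrocyte-like cells of SC300 did so too (2.02%, 1.33 to 2.95, against up to 1.09%). The remaining shares reach below the limit of their library.

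Mature oligodendrocyte-like cells stood apart from this for *Nr3c2*, with 13 UMIs in Control, or 1.66 CPM (0.886 to 2.85), and 3 in SC300, or 0.284 CPM (0.0585 to 0.829). Their log2 ratio was -2.55 (-5.0 to -0.69), and the share of positive cells was 12 of 369 (3.25%, 1.69 to 5.61) and 3 of 461 (0.651%, 0.134 to 1.89), intervals that overlap. Both CPM intervals reach below the upper limits of microglia-like cells (1.04 and 1.52 CPM), so by CPM a level above free RNA is not settled here either. The share of positive cells lay above the microglia-like limit in Control (0.699%) but not in SC300 (1.09%). With 16 UMIs the gene is under the 50 needed for a call. The larger mature oligodendrocyte-like cluster alone, 321 and 350 cells, held 12 and 3 UMIs, with a log2 ratio of -2.26 (-4.72 to -0.37). Over all kept cells *Nr3c2* gave 0.915 and 0.833 CPM, with a log2 ratio of -0.13 (-0.75 to 0.48).

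*Esr1* was the only receptor with the 200 UMIs set for a search of genes with a like pattern. Over 26 points, the 13 cell types in both libraries, *Ftcd* (0.92) and *Tmem91* (0.90) were among the 3 genes with the highest Pearson correlation of log2(CPM + 1), of 12035 genes compared. The points share their library and differ in depth, and most of them are at or near 0 for *Esr1*.

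Genes known to respond to estradiol were then read in the same cells, from a list of 16 of which 15 symbols were matched. The list was chosen with earlier results of these data known. Its counts beside the shares of all genes therefore describe the list and are no independent test. In neuron-like cells, 11 reached 50 UMIs, of which 4 were called higher and 1 lower in SC300, against 3.16% and 3.2% of all genes, and their median log2 ratio was 0.27, against -0.05 over all genes. The median was 0.072 in cells with up to 10% mitochondrial UMIs (9 genes), 0.43 in cells with up to 20%, and 0.41 at a minimum of 20 UMIs per gene. *Greb1*, a cofactor of estrogen receptor alpha that estradiol induces, had 43 UMIs in Control (3.55 CPM) and 234 in SC300 (18.6 CPM), 5.24-fold higher. *S100g*, which encodes the calcium-binding protein calbindin-D9k, had 66 and 3138 UMIs (5.44 and 249 CPM), 45.8-fold higher. *Nrip1*, a corepressor of nuclear receptors, was at 8.0 and 13.3 CPM (97 and 168 UMIs), a log2 ratio of 0.74 (0.37 to 1.11), and *Igfbp4*, a binding protein of insulin-like growth factors, had 20 and 40, a log2 ratio of 0.95 (0.14 to 1.80). Without the cell highest in *Igfbp4* in each library, 16 and 31 UMIs were left, under the 50 of a call, at 0.90 (-0.01 to 1.87). *Rprm*, a cell cycle inhibitor, was the gene called lower, with 632 and 363 UMIs (52.1 and 28.8 CPM), a log2 ratio of -0.85 (-1.04 to -0.67). *Prlr*, the prolactin receptor, stayed just inside the limit at 133 and 203 UMIs, at a log2 ratio of 0.56 (0.23 to 0.88).

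In neurons with an *Esr1* UMI, *Greb1* was at 4.31 CPM in Control and 47.4 CPM in SC300 (7 and 65 UMIs), for a log2 ratio of 3.46 (2.34 to 4.83). In neurons without one, it was at 3.43 and 15.1 CPM (36 and 169 UMIs), a log2 ratio of 2.13 (1.61 to 2.70). *S100g* was at 23.4 and 684 CPM in neurons with an *Esr1* UMI (38 and 938 UMIs) and at 2.67 and 196 CPM in those without (28 and 2200 UMIs). Both genes were thus higher in SC300 in either set, and in SC300 both were at a higher level in neurons with an *Esr1* UMI. *S100g* was so in Control as well. Unlike for *Greb1*, the log2 ratio of *S100g* was smaller in neurons with an *Esr1* UMI (4.87, 4.40 to 5.38) than in those without (6.20, 5.66 to 6.79). *Rprm* was lower in SC300 in both sets, with log2 ratios of -1.63 (-2.47 to -0.86) and -0.81 (-1.01 to -0.61). *Gal* and *Penk*, precursors of galanin and enkephalins, had log2 ratios of 1.35 (1.27 to 1.42) and 1.64 (1.39 to 1.90) in neurons with an *Esr1* UMI and of -0.16 (-0.21 to -0.11) and 0.11 (0.03 to 0.19) in those without. The counting interval understates the error of these peptides, whose UMIs come from few cells. A single SC300 cell held 352 of the 464 *Penk* UMIs of its set, without which the set stood at 84.2 CPM in SC300, against 108 CPM in all Control cells of the set, so that 1 cell sets the direction. With the cell highest in *Penk* left out in both libraries, the log2 ratio was 0.15 (-0.24 to 0.53). A single SC300 cell also held 1505 of 4530 *Gal* UMIs, and with the highest cell left out in both libraries the *Gal* ratio was 1.32 (1.23 to 1.41). The split was made after the values of the list were seen, the cells of a library are not replicates, and neurons with an *Esr1* UMI were deeper (medians of 29267 and 36157 UMIs) than those without (23302 and 23080).

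**Figure D4:**
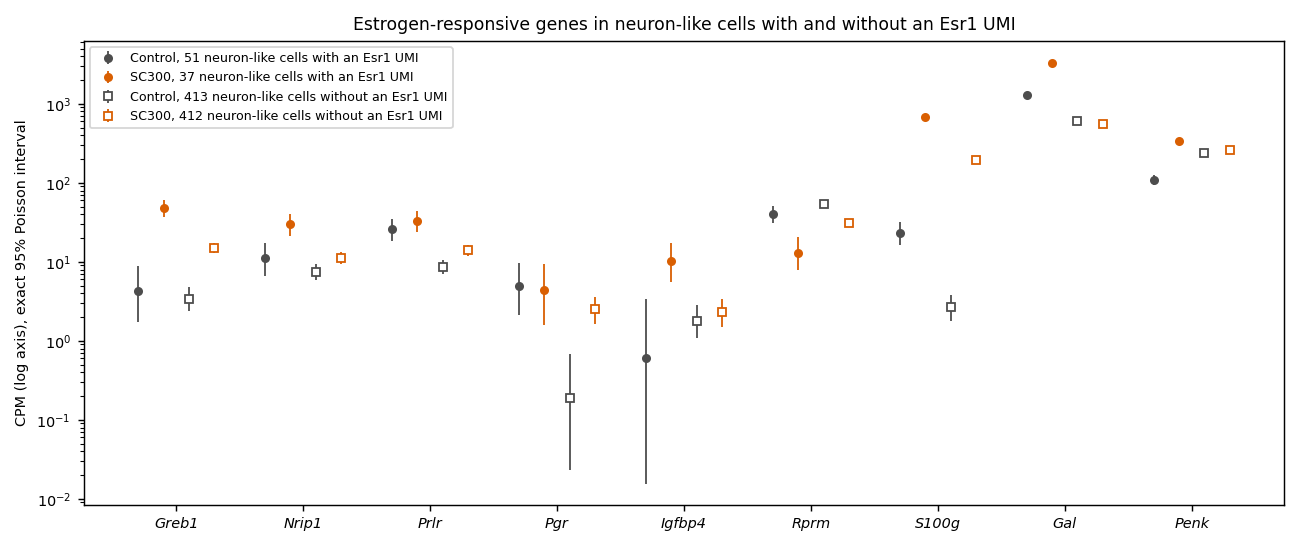
CPM (y axis, log scale) of 9 genes of the estrogen-responsive list (x axis) in neuron-like cells with an *Esr1* UMI (filled circles) and without one (open squares), in Control (grey) and SC300 (orange), with exact 95% Poisson intervals. *Greb1* and *S100g* lie higher in SC300 in both sets, *Rprm* lower in both, and *Pgr* is lowest in Control neurons without an *Esr1* UMI (0.190 CPM).

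Outside neurons fewer genes of the estrogen-responsive list reached 50 UMIs, at most 7 in a cell type, and how often they were called was not compared between cell types. In astrocyte-like cells 1 of 7 measured genes was called higher, *Greb1*, at 4.31 and 9.86 CPM (41 and 104 UMIs), for which the log2 ratio was 1.19 (0.66 to 1.75), against 3.19% of all genes. In tanycyte-like cells 1 of 6 was called higher, *Rprm* (28 and 74 UMIs), and 2 lower, *Igfbp4* (41 and 11 UMIs) and *S100g*, against 4.42% and 7.28% of all genes. The interval of *S100g* (34 and 16 UMIs, log2 ratio -0.77, -1.73 to 0.13) includes 0. In ependymal cell-like cells 1 of 4 was called lower, against 5.9% of all genes, and none higher, against 3.03%. It was *Greb1*, with 55 and 23 UMIs, and its interval (-0.59, -1.36 to 0.13) includes 0 as well. Both were named after their values were seen.

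Oligodendrocyte precursor-like cells had 1 of 5 genes called higher, *Igfbp4* (23 and 47 UMIs), against 2% of all genes, and none lower, against 2.9%. Macrophage-like cells, 25 in Control and 53 in SC300, had 2 of 3 called higher, *Igfbp4* (19 and 114 UMIs) and *Ctsd*, the lysosomal protease cathepsin D (30 and 97 UMIs), against 22.7% of all genes, and none lower, against 18.9%. No measured gene of the list was past 1.5-fold in endothelial cell-like (4 genes, against 4.16% lower and 3.37% higher over all genes), mural cell-like (5, against 3.15% and 3.12%), mature oligodendrocyte-like (3, against 3.18% and 2.67%), newly formed oligodendrocyte-like (2, against 4.6% and 2.33%), microglia-like (4, against 3.94% and 2.69%) or stromal cells (1, against 6.51% and 21%).

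A list of 20 genes known to respond to glucocorticoids had a median log2 ratio below that of all genes in 10 of 12 cell types and above it in ependymal cell-like and macrophage-like cells. This list, too, was chosen with earlier results of these data known, and its counts are no independent test. The cell types share the same 2 libraries, and the receptor chaperones also had medians below that of all genes in most of them. In neuron-like cells 3 of 14 measured genes were called lower, against 3.2% of all genes, and none higher, against 3.16%, with a median log2 ratio of -0.30, against -0.05 over all genes. In neurons with up to 10% mitochondrial UMIs the median was -0.075 over 10 genes. The 3 genes called lower in all neuron-like cells were *Klf9*, a transcription factor (628 and 392 UMIs, log2 ratio -0.73, -0.92 to -0.55), *Dusp1*, a phosphatase that dampens MAP kinases (905 and 574, -0.71, -0.86 to -0.56), and *Sgk1*, a kinase induced by corticosteroids (229 and 153, -0.64, -0.94 to -0.33). The classic targets *Tsc22d3* and *Fkbp5* were at -0.13 and -0.10 in these cells.

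Vessel cells and microglia held the lowest medians among the cell types with at least 100 cells per library. In endothelial cell-like cells 8 of 13 genes were called lower, against 4.16% of all genes, and none higher, against 3.37%, with a median of -0.72 against -0.0048 over all genes. *Ddit4*, an inhibitor of mTOR signalling, went from 449 to 194 CPM (log2 ratio -1.21, -1.38 to -1.05), *Nfkbia*, the inhibitor of NF-kappa B, from 914 to 428 CPM (-1.09, -1.20 to -0.98), and the metallothionein gene *Mt2A* from 110 to 45.3 CPM (-1.27, -1.61 to -0.94). In mural cell-like cells 6 of 14 were called lower, against 3.15%, and none higher, against 3.12%, with a median of -0.52, led by *Zbtb16*, a transcription factor, with 43 and 11 UMIs (-2.43, -3.53 to -1.45). In the microglia-like class 5 of 12 were called lower, against 3.94%, and none higher, against 2.69%, with a median of -0.42. Among them *Tsc22d3*, an anti-inflammatory leucine zipper protein, went from 390 to 122 CPM (-1.68, -1.83 to -1.52) and *Fkbp5*, a cochaperone of the glucocorticoid receptor, from 31.2 to 12.3 CPM (-1.35, -1.88 to -0.84).

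In astrocyte-like cells 3 of 15 genes were called lower, against 2.12% of all genes, and none higher, against 3.19% (median -0.37), with *Fkbp5* at 37 and 16 UMIs (log2 ratio -1.36, -2.30 to -0.48). In mature oligodendrocyte-like cells 3 of 13 were called lower, against 3.18%, and none higher, against 2.67% (median -0.39), with *Cdkn1a*, a cell cycle inhibitor, going from 125 to 55.6 CPM (-1.16, -1.31 to -1.02). In tanycyte-like cells 4 of 12 were called lower, against 7.28%, and 1 higher, against 4.42% (median -0.21). In ependymal cell-like cells 2 of 8 were called lower, against 5.9%, and none higher, against 3.03% (median 0.07). In oligodendrocyte precursor-like cells 1 of 9 was called lower, against 2.9%, and none higher, against 2%. In newly formed oligodendrocyte-like cells 1 of 7 was called higher, against 2.33%, and none lower, against 4.6%. Both were *Dusp1*. Macrophage-like cells had 2 of 5 called lower, against 18.9%, and 2 higher, against 22.7% (median 0.22), and stromal cells, 11 in Control and 34 in SC300, 6 of 10 lower, against 6.51%, and 2 higher, against 21% (median -0.62). Most genes of this list also respond to other signals, several of them to tissue dissociation. Immediate-early genes, a list of 12 added after these values were seen, had medians of -0.52 in neuron-like, -0.41 in endothelial cell-like, -0.17 in mural cell-like, -0.08 in microglia-like and 0.13 in astrocyte-like cells. Clock genes in phase with *Dbp*, 9 genes added likewise, had medians of -0.05, -0.13, -0.10, 0.28 and -0.12 in the same cells and of -1.02 in tanycyte-like cells. The other immediate-early medians were 0.66 in ependymal cell-like, 1.08 in macrophage-like, 0.08 in tanycyte-like and -0.67 in stromal cells. They were -0.27 in oligodendrocyte precursor-like, -0.43 in newly formed oligodendrocyte-like and -0.08 in mature oligodendrocyte-like cells. The part of immediate-early or clock genes in the glucocorticoid-responsive list was not tested.

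**Figure D5:**
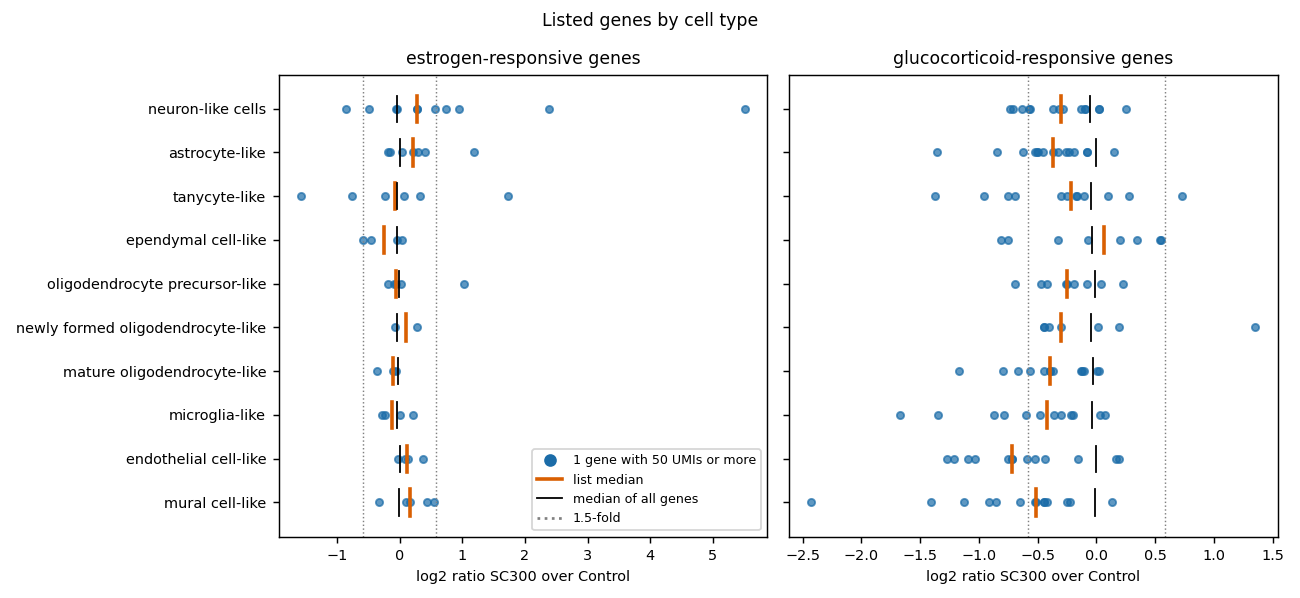
Log2 ratio of SC300 over Control (x axis) of each gene with at least 50 UMIs (points) of the estrogen-responsive list (left) and the glucocorticoid-responsive list (right) by cell type (y axis); orange lines mark the list median, black lines the median of all genes and dotted lines 1.5-fold; macrophage-like and stromal cells, with few cells, are left out. In neuron-like cells *S100g* (5.52) and *Greb1* (2.39) stand far to the right, and the median of the glucocorticoid-responsive list lies left of that of all genes in the cell types shown except in ependymal cell-like cells (0.07).

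The partners of the receptors were read in neuron-like cells, where 3.2% of all genes were called lower and 3.16% higher. Most genes thus lay within 1.5-fold there, and counts near these shares show nothing particular to the partners. All 9 chaperones were within 1.5-fold in neuron-like cells (median log2 ratio -0.09), for example *Hsp90ab1*, a heat shock protein that holds receptors ready for hormone, at 2354 and 2212 CPM. Of 8 coregulators measured there, 7 were within 1.5-fold, among them *Ncoa1*, a coactivator, at -0.07 (-0.20 to 0.06), and *Nrip1*, which is on the estrogen-responsive list too, was higher. Of 7 related receptors, 5 were measured in neuron-like cells and none was past 1.5-fold. *Esrra*, an orphan receptor of energy metabolism, was called lower in tanycyte-like cells (61 and 23 UMIs, -1.09, -1.85 to -0.38), against 7.28% of all genes called lower and 4.42% called higher there. *Esrrg*, its relative, was called lower in ependymal cell-like cells (103 and 31 UMIs, -1.07, -1.70 to -0.47), against 5.9% of all genes called lower and 3.03% called higher there.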

How the data were processed

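The authors processed the reads of both libraries (10x Genomics 3′ chemistry, version 3) with Cell Ranger (3.0.1 in the submitters' processing notes) and deposited UMI counts per gene and barcode, without normalization. The methods name a later Cell Ranger version for demultiplexing. They also name an aggregation of the libraries with default parameters, with no word on what it did to the counts. Gene symbols are those of the deposited gene lists, and a symbol on several rows was summed. The files hold 4488 Control and 4524 SC300 barcodes, of which 4296 and 4379 reached the limit of 200 detected genes. The study's text gives a pair of cell numbers equal to the barcodes in the files and a lower pair, and the cells kept lie between them. Both libraries were clustered together with Seurat 5.3.0 in R 4.3.3 (30 principal components, resolution 0.7), with 1981 of 2000 variable genes, since 19 receptor and response genes were left out. A cell type name needed at least 3 markers at 10 CPM and 2-fold above the other clusters. A cluster led by cell cycle genes was left unnamed after the data were seen. Doublets called by Scrublet in scanpy 1.11.5 (70 Control, 73 SC300) stayed in. UMIs were summed per cell type and library in Python 3.11.15 (numpy 2.4.6, scipy 1.17.1), and the ratio and its interval were checked on simulated counts. A count of 0 was set to 3 UMIs in a ratio, and no ratio was given where both libraries held 3 or fewer.

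With 1 library per group no test was run. Genes of the lists were named when they were past 1.5-fold with at least 50 UMIs and an interval that left out 0, up to 4 per list and cell type, and other genes behind a small count were named after their values were seen. The receptors, the lists and the alternatives were chosen with earlier results of these data known. The alternatives were other resolutions, all variable genes, markers read per barcode, limits on mitochondrial UMIs, doublets left out, other scalings, cells weighted alike, thinning, other minimum counts and the cell with the most UMIs of a gene left out. Values of some genes that these rules name are not reported here.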

Additional observations from a re-analysis of the deposited data

Results flagged for a closer look

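Genes of the lists that lay past 1.5-fold in opposite directions in 2 cell types with at least 100 cells per library were looked at again. The difference between the cell types was not tested, and each cell type had 1 library per group. *Rprm* had a log2 ratio of SC300 over Control of -0.85 in neuron-like and 1.72 in tanycyte-like cells. *Igfbp4* had 0.95 in neuron-like, 1.02 in oligodendrocyte precursor-like and -1.58 in tanycyte-like cells. *Dusp1* had -0.71 in neuron-like, -0.69 in oligodendrocyte precursor-like, -0.72 in endothelial cell-like and 1.35 in newly formed oligodendrocyte-like cells. *Sult1a1*, a sulfotransferase, had 0.73 in tanycyte-like and -0.91 in mural cell-like cells.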

How the results depend on the processing

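Of 107 alternative values of the receptor ratios and list medians, 97 stayed within the counting interval of the reported value (within 0.1 for a median), 10 moved out of it and 0 changed the sign of a called value. Intervals from few UMIs are wide, so alternatives could hardly leave them. In neuron-like cells *Esr2*, with 6 UMIs, ranged from 0.35 to 4.47, yet all 11 alternatives counted as within. The same held for all 10 of *Nr3c2*, also with 6 UMIs. With cells up to 10% mitochondrial UMIs, the *Esr1* log2 ratio was -2.00 (-4.40 to -0.22) in all kept and -1.72 (-4.91 to 0.42) in neuron-like cells, where 8 of 110 Control and 1 of 46 SC300 cells were positive. The *Pgr* ratio was 3.76 (0.91 to 9.21) and 3.98 (1.08 to 9.45), from 1 and 5 positive neuron-like cells. At this limit, the median of the glucocorticoid-responsive genes in neuron-like cells was -0.075 and that of the estrogen-responsive genes 0.072. With up to 20%, the latter was 0.43, and with at least 20 UMIs per gene 0.41. With cells thinned to 2000 UMIs, the *Esr1* ratio in neuron-like cells was -0.13 (-1.71 to 1.41), which no longer passes 1.5-fold, and the *Esr2* ratio in all kept cells 2.23. Of the other alternatives, *Esr1* in neuron-like cells without the cluster of high mitochondrial share stood at -1.05 (-1.57 to -0.56) and *Pgr* at 1.55 (0.48 to 2.74). Of 80 alternative shares, 65 stayed within the interval and 15 moved, 10 with thinning and 5 with cells up to 10% mitochondrial UMIs. Thinning removes UMIs and so lowers the share of cells with a sparse gene by its design. The 10 thinned shares therefore do not measure how firm the shares are. With the cell highest in a gene left out of each library, 32 of 35 ratios of estrogen-responsive genes stayed within the interval and 3 moved, *Penk* and *Igfbp4* in neurons with an *Esr1* UMI and *Gal* in neuron-like cells. Values planned for *Nr3c1* were not run. No paired analysis was possible because each group had 1 library. Receptors with under 50 UMIs and sets of few cells limit what these libraries can show.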
